A study of Mus musculus with 9 samples.

Results

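The Notch pathway was read in cultured mouse granulosa cells through 9 genes: the ligands Jag1 and Jag2, the receptors Notch1, Notch2 and Notch3, and the target genes Hes1, Hey1, Hey2 and Heyl. Every probe set annotated with 1 of these symbols alone was taken, which gave 17 of the 45037 probe sets tested and 9 of the 18193 genes named on the arrays. The cells came from mice of several genotypes, aged 20 to 26 days, that had received equine chorionic gonadotrophin (eCG), a hormone that drives follicles to grow, 48 h earlier. After attachment they were infected for 24 h without serum, at a nominal multiplicity of infection of about 50, with adenoviruses that express eGFP (a fluorescent protein, the control group), Cre recombinase or WNT4. Each virus has 3 Affymetrix arrays, called GFP 1 to 3, Cre 1 to 3 and WNT4 1 to 3. Where Ctnnb1 (beta-catenin) is floxed, Cre deletes it, but the sources used here do not say which genotype the cells of each group had. All groups share eCG treatment, culture and a virus, so no group shows uninfected cells.

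In Notch signalling a ligand on the surface of a cell binds a receptor on its neighbour. The receptor is then cut by an ADAM protease and by gamma-secretase, and its released intracellular part enters the nucleus, where it joins the DNA-binding protein RBPJ and Mastermind-like coactivators. Hes and Hey genes, which encode basic helix-loop-helix repressors, are the classical targets of this complex. In the mouse ovary JAG1 is known as a ligand made by oocytes, NOTCH2 as a receptor of granulosa cells, and the pathway is known for its part in the breakdown of germ cell nests and in follicle growth.

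RBPJ binds a short core that is often written GTGGGAA, and promoter windows were searched for this string. RefSeq promoter windows (GRCm38.p6, from 250 bases before to 50 bases after a gene's start) matched 6 of the 9 members: Jag1, Jag2, Notch1, Notch2, Notch3 and Hey2. Searched on both strands, GTGGGAA occurred in 1 of these, that of Hey2, which holds 2 copies. Among all 32851 windows 6.38% held at least 1 copy and 0.256% held 2 or more. The 30-base stretches that hold the matches of Hey2 are at chr10:30842972-30843001 and chr10:30842769-30842798, on the minus strand of the chromosome. Of 47 other pathway genes with a window, 6 held GTGGGAA. These genes have 63 windows, so this count of genes is not comparable with the share of windows. Hes5, a further classical target, is shown because it also holds 2 copies, with different spacing, while the target Hes7 holds 1. The 30-base stretches that hold the matches of Hes5 are at chr4:154960686-154960715 and chr4:154960829-154960858 on the plus strand. Capitals mark the core or its reverse complement, and each sequence is read in the direction of its gene.
Hey2, core starting 207 bases before the start: gcgcggtggcaTTCCCACgcctctgccaac
Hey2, core starting 4 bases before the start: tgggctgcagcGTGGGAAagaacctccagg
Hes5, core starting 226 bases before the start: gggcgagcgcgTTCCCACagcccggacatt
Hes5, core starting 83 bases before the start: ggccgccgagtGTGGGAAcggccgcggcgc
The shorter core TGGGAA, contained in GTGGGAA, occurred in 25.6% of all windows and in no other member's window. The E-box CACGTG, bound by Hey-type proteins, occurred in 7.15% of windows and in 0 of the 6. The N-box CACNAG, bound by Hes-type proteins, occurred in 42.5% of windows and in those of Notch1, Notch2 and Notch3. A match of letters is not a measured site.

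Values are log2 expression values, so a difference of 1 is a 2-fold difference on the linear scale. Each gene is represented by its brightest probe set (by mean over all arrays), and the members' other probe sets are given beside it for the comparison described. Array medians ran from 5.44 to 5.54. A mean under 6 was treated as dim, and Notch3 (5.95) and Heyl (5.88) fall there, while the other 7 members lie above. The labels call the replicates biological but do not tie them to different animals or cultures, so the spread behind each p-value is that between these samples and may be technical. The genes behind the labels followed them only in part. In its brightest probe set Wnt4 averaged 9.41 with GFP, 10.63 for the label Cre and 9.34 for the label WNT4. There Cre lay 1.23 ± 0.34 (SE) above GFP (limma unadjusted p = 0.00622). WNT4 differed from Cre by -1.30 ± 0.34 (limma unadjusted p = 0.00455, adjusted p = 0.773). In its other probe set the means were 8.32, 9.62 and 9.29. Here WNT4 lay 0.97 ± 0.49 (SE) above GFP (limma unadjusted p = 0.0793, adjusted p = 0.447), and these groups overlapped. In neither probe set was the WNT4 mean above the Cre mean. Ctnnb1 averaged 13.24, 13.28 and 13.77, and its other 2 probe sets were likewise no lower with Cre than with GFP (differences of 0.20 and 0.10). Whether these probe sets lie in the viral transcript or the recombined part is unknown here, and directions are given for the arrays as labelled.

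Of 14 granulosa markers measured, 13 had a mean of at least 6. Inha, the inhibin alpha subunit, read 12.88 to 13.96, Foxl2, which maintains granulosa identity, 10.09 to 10.70, and Amhr2, the receptor of anti-Müllerian hormone, 11.31 to 12.50. Amh, the hormone itself, was dim at a mean of 5.99. Between WNT4 and GFP, Esr2 (estrogen receptor beta) differed by -1.25 ± 0.36 and Cyp11a1, the enzyme that starts steroid synthesis, by 1.21 ± 0.41 (SE, limma adjusted p = 0.236 and 0.286). The granulosa list's median relative to the GFP mean ran from -0.05 to 0.03 with GFP, -0.32 to 0.07 with Cre and -0.20 to 0.33 with WNT4. Of 8 endothelial markers 5 were dim, among them Pecam1 (4.51 to 4.97) and Cdh5 (4.77 to 5.24), while Eng, Kdr and Esam had means of 6.98, 6.36 and 6.21. The summed linear signal of the 8 endothelial markers ran from 410.4 to 433.4 with GFP, 390.1 to 432.1 with Cre and 395.5 to 477.2 with WNT4. Oocyte markers, by contrast, differed between arrays. Relative to the GFP mean the median of 8 oocyte genes stood at -0.30, 0.72 and -0.42 on GFP 1, 2 and 3, at 1.03, 0.59 and -0.19 on Cre 1, 2 and 3, and at 1.78, 0.10 and -0.04 on WNT4 1, 2 and 3. Their summed linear signal ran from 884.8 to 2113 with GFP, 1082 to 2771 with Cre and 1232 to 4429 with WNT4. Leukocyte markers (7 genes) were highest on the array numbered 3 of each group, at 0.64, 0.93 and 0.92, against -0.42 to 0.07 on the other 6 arrays. Their summed linear signal ran from 805.1 to 1621 with GFP, 780.8 to 1764 with Cre and 781.2 to 1689 with WNT4. A list of 11 hypoxia genes, chosen with earlier results of these data known, stood at 2.92 on Cre 3 and 3.28 on WNT4 3. It stood at 0.73 on WNT4 1 and between -0.19 and 0.15 elsewhere. On WNT4 1 the stromal genes Dcn (decorin) and Lum (lumican) read 9.50 and 7.33, against at most 7.10 and 4.91 on the other arrays. Acta2 and Tagln of the same list went the other way and had their lowest values there (10.81 and 8.53). The median of the 11 mural, theca and stroma markers ran from -0.25 to 0.25 over all arrays. Their summed linear signal ran from 3606 to 8240 with GFP, 3441 to 8112 with Cre and 3020 to 10264 with WNT4. RMA values have a floor well above 0, so no marker is at 0. In such mixed samples fewer cells of a type and less RNA per cell cannot be told apart.

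**Figure D1:**
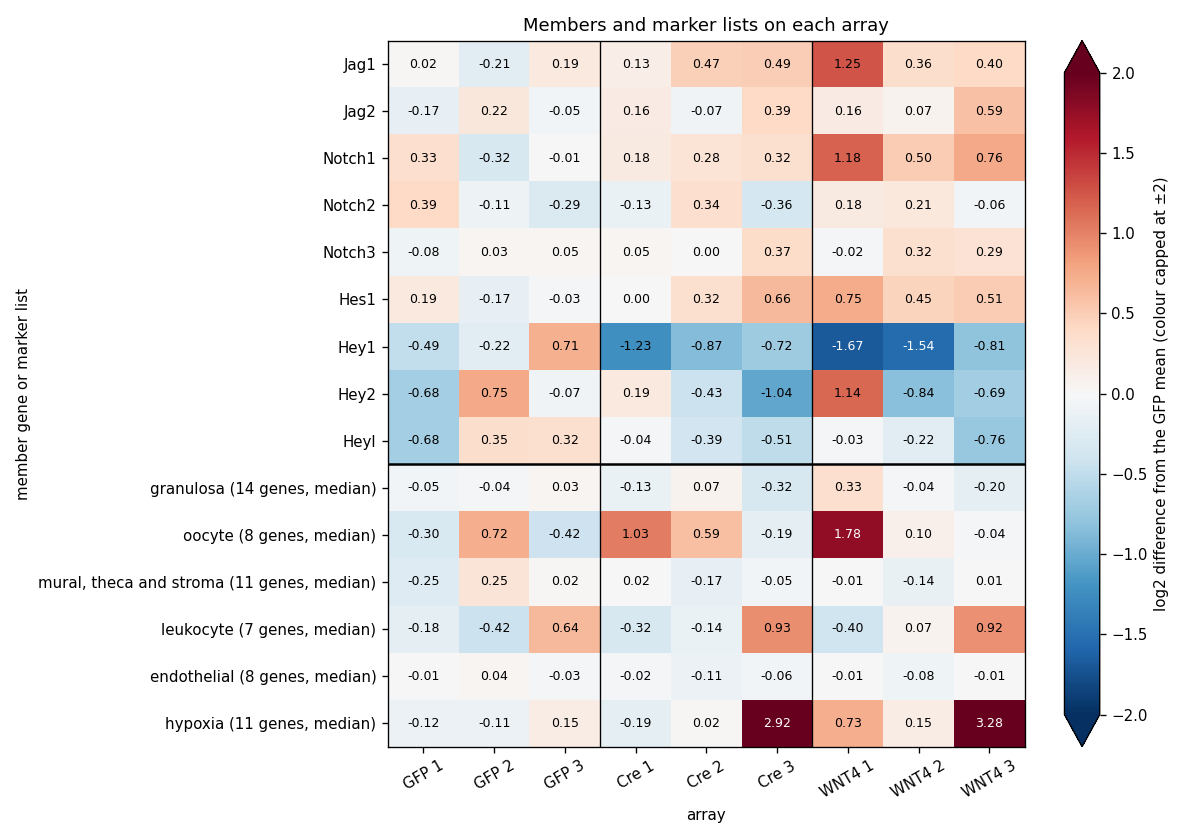
Log2 difference of each array from the mean of the 3 GFP arrays, for the 9 members (top, 1 probe set per gene) and for the median gene of 6 marker lists (bottom); columns are the 9 arrays and red is above, blue below. Hey1 is below 0 on all 6 Cre and WNT4 arrays (-0.72 to -1.67) and Hey2 is highest on GFP 2 and WNT4 1. The hypoxia list is highest on Cre 3 and WNT4 3, followed by WNT4 1 (0.73).

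WNT4 was compared with GFP to see which Notch genes differ between these viruses. The target gene Hey1 was 2.53-fold lower with WNT4, and the receptor Notch1 (1.76-fold), the ligand Jag1 (1.59-fold) and the target gene Hes1 (1.48-fold) were higher. Each of these 4 had its WNT4 arrays entirely on one side of its GFP arrays, yet limma called none of them after adjustment. The other 5 members overlapped between the groups. Over all 45037 probe sets limma called 7 (0.0155%) at an adjusted p under 0.05, and 0 of the 9 members, with the smallest adjusted p at 0.193 for Hey1. At an unadjusted p under 0.05 there were 4 members, 3 higher and 1 lower, where 13.0% of all probe sets reached that level, 9.12% higher and 3.91% lower. Groups did not overlap for 14.8% of all probe sets. Brighter genes differed more often: among the 10556 genes read from a probe set with a mean of at least 6, 25.0% had an unadjusted p under 0.05 (20.8% higher, 4.23% lower) and 24.7% did not overlap, 20.2% higher and 4.54% lower. Of the brighter genes 69.5% had a difference above 0, as did 6 of the 9 members. The median difference of the 9 members was 0.20, that of all probe sets -0.0016 and that of the brighter genes 0.16.

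**Figure D2:**
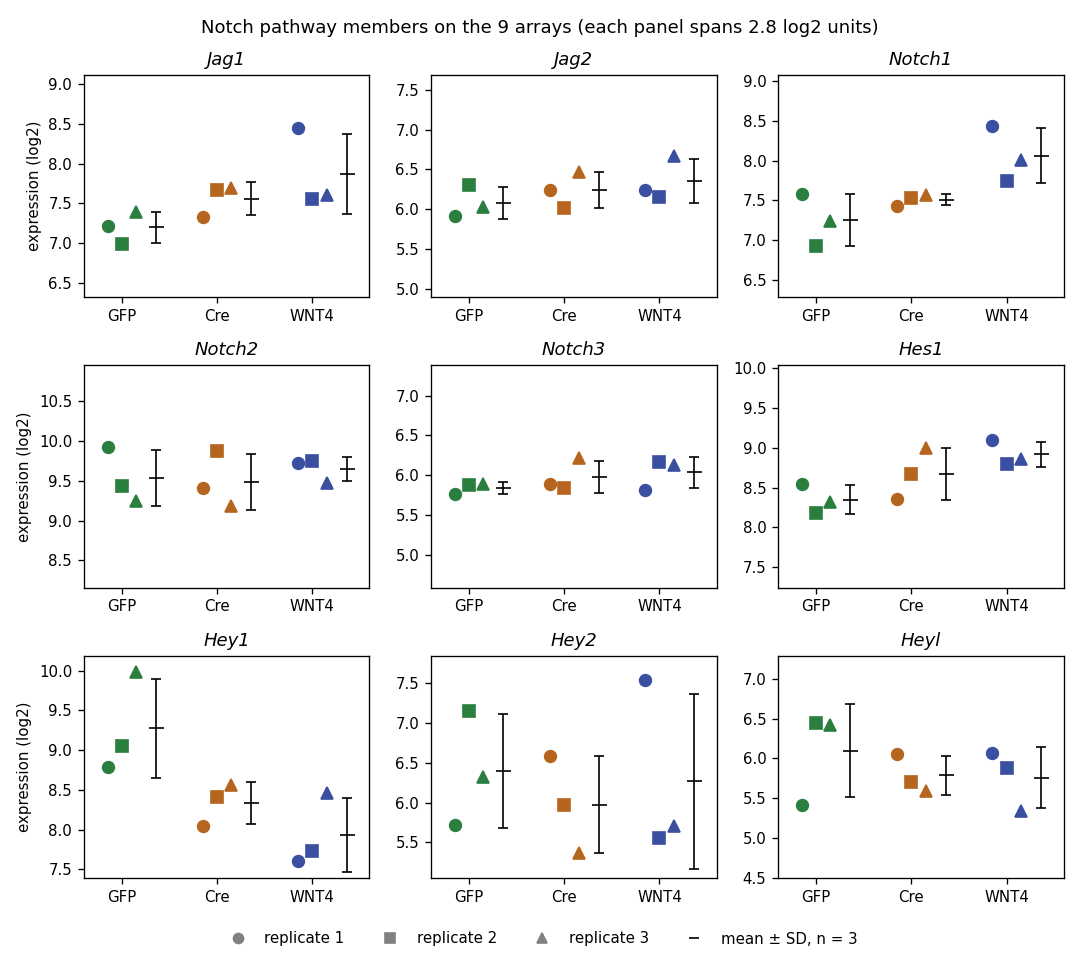
Log2 expression of the 9 members on each array, grouped by virus, with symbols for the replicate number and black bars for the mean ± SD of 3 arrays; every panel spans the same height. WNT4 and GFP points are fully separate for Jag1, Notch1, Hes1 and Hey1, and Cre and GFP points for Hey1.

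Hey1, a repressor of the Hey family read by its only probe set, had the largest differences from GFP of the 9 genes. It read 8.78, 9.06 and 9.98 on GFP 1, 2 and 3, then 8.04, 8.41 and 8.56 on Cre 1, 2 and 3, and 7.60, 7.74 and 8.46 on WNT4 1, 2 and 3. The lowest GFP array thus lay above all 6 others, while Cre and WNT4 overlapped. The means were 9.27 ± 0.63 (SD, n = 3), 8.33 ± 0.27 and 7.93 ± 0.46. WNT4 differed from GFP by -1.34 ± 0.33 (SE, limma unadjusted p = 0.0029, adjusted p = 0.193) and Cre from GFP by -0.94 ± 0.33 (unadjusted p = 0.0193, adjusted p = 1). Both differences use the same GFP arrays. Hey1 read highest on the array numbered 3 of each group, the arrays on which leukocyte markers were highest. The summed signal of the mural, theca and stroma markers was also highest there (8240, 8112 and 10264 with GFP, Cre and WNT4). Acta2 and Tagln, the brightest genes of that list (means of 11.91 and 9.79), weigh most in this linear sum. The median of that list stood at 0.02, -0.05 and 0.01 on these arrays. The part of either kind of cell in the Hey1 values was not tested. Without GFP 3 the difference was -0.99 for WNT4 and -0.59 for Cre, so this array carried much of the second value. Without Cre 3 and WNT4 3, the arrays highest in hypoxia genes, the differences were -1.60 and -1.05. After the scalings tried, WNT4 against GFP ran from -1.515 to -1.295.

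Hes1, the repressor most often used as a readout of the pathway, lay on the other side. It read 8.54, 8.18 and 8.32 on GFP 1, 2 and 3, 8.35, 8.67 and 9.003 on Cre 1, 2 and 3, and 9.10, 8.80 and 8.86 on WNT4 1, 2 and 3. All WNT4 arrays were above all GFP arrays, and the Cre arrays spanned both. The difference was 0.57 ± 0.17 for WNT4 against GFP (SE, unadjusted p = 0.00965, limma adjusted p = 0.251). It was 0.33 ± 0.17 for Cre against GFP (unadjusted p = 0.0937) and 0.16 without Cre 3, the highest Cre array. The 2 classical targets Hes1 and Hey1 thus differed from GFP in opposite directions on the arrays labelled WNT4. Each was read by its only probe set, so no other probe set of either gene could be set beside it. That opposition was the same under quantile normalization (0.39 and -1.515), median centring (0.61 and -1.295) and centring on the 75th percentile (0.42 and -1.49).

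Of the remaining Hey-family repressors, Hey2 followed single arrays more than the virus, while Heyl was dim, with lower means for Cre and WNT4. Hey2 read 5.72, 7.15 and 6.32 on GFP 1, 2 and 3, 6.59, 5.97 and 5.36 on Cre 1, 2 and 3, and 7.54, 5.56 and 5.70 on WNT4 1, 2 and 3. Its highest arrays were WNT4 1, GFP 2 and Cre 1, which were also the 3 arrays with the highest oocyte markers, and the part of oocyte RNA in this was not tested. Its difference from GFP was -0.13 ± 0.57 for WNT4 and -0.42 ± 0.57 for Cre (SE), and the first was 0.25 without GFP 2 and -0.77 without WNT4 1. Heyl read 5.34 to 6.45 in its brightest probe set, with GFP 1 (5.42) and WNT4 3 (5.34) lowest, and differed from GFP by -0.34 ± 0.30 for WNT4 and -0.31 ± 0.30 for Cre. Its other probe sets differed by -0.21 and 0.10 for WNT4 against GFP, and by -0.27 and 0.01 for Cre against GFP. Without single arrays, the difference of the brightest Heyl probe set ran from -0.674 to -0.125 for WNT4 and from -0.648 to -0.133 for Cre. The lower ends came without GFP 1. Neither gene's groups separated in any comparison.

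Among the ligands, Jag1 was higher on the arrays labelled WNT4. Jag1 read 7.21, 6.99 and 7.39 on GFP 1, 2 and 3, 7.33, 7.67 and 7.69 on Cre 1, 2 and 3, and 8.45, 7.55 and 7.60 on WNT4 1, 2 and 3. WNT4 1 stood far above the rest, and WNT4 2 and WNT4 3 lay below Cre 2 and Cre 3. The difference from GFP was 0.67 ± 0.24 for WNT4 (SE, unadjusted p = 0.0199, limma adjusted p = 0.295), or 0.38 without WNT4 1, and 0.36 ± 0.24 for Cre. Between WNT4 and Cre it was 0.31 ± 0.24, and 0.016 without WNT4 1. WNT4 1 was also highest in oocyte markers and in Dcn and Lum, lowest in Acta2 and Tagln, and stood at 0.73 in the hypoxia list. It had the largest 3' minus 5' differences of the control probe sets as well (1.38 for beta-actin and 2.17 for Gapdh, against at most 1.302 and 1.88 elsewhere), a measure of RNA quality. The part of these in the Jag1 value was not tested. The other Jag1 probe sets were dim, with means of 4.997 and 4.85, and differed by -0.02 and 0.11. Jag2, the second Jagged ligand, differed by 0.27 ± 0.18 for WNT4 and 0.16 ± 0.18 for Cre, with WNT4 3 (6.67) and Cre 3 (6.47) highest, and its other probe set by -0.02 and 0.10. The first difference was 0.115 without WNT4 3 and the second 0.045 without Cre 3.

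Among the receptors, Notch1 alone separated WNT4 from both other groups. It read 7.58, 6.93 and 7.24 on GFP 1, 2 and 3, 7.43, 7.53 and 7.56 on Cre 1, 2 and 3, and 8.43, 7.75 and 8.01 on WNT4 1, 2 and 3. The lowest WNT4 array lay above the highest array of the other groups. WNT4 differed from GFP by 0.81 ± 0.20 (SE, unadjusted p = 0.00293, limma adjusted p = 0.194) and from Cre by 0.56 ± 0.20 (unadjusted p = 0.0218, adjusted p = 0.773), or by 0.63 and 0.37 without WNT4 1. Its other probe set, with a mean of 5.75, differed from GFP by 0.03 ± 0.12, so the difference rests on 1 of 2 probe sets. Averaged over both, WNT4 differed from GFP by 0.42.

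Notch2 and Notch3 did not separate the groups. Notch2 read 9.93, 9.43 and 9.25 with GFP, 9.41, 9.88 and 9.18 with Cre and 9.72, 9.75 and 9.48 with WNT4 (arrays 1, 2 and 3 in each group). The WNT4 values lay within the range of the GFP arrays. The difference for WNT4 against GFP was 0.11 ± 0.22, and -0.10 after quantile normalization and -0.04 after centring on the 75th percentile, so it has no settled sign. For Cre it was -0.05 ± 0.22. The other Notch2 probe set differed by -0.17 ± 0.15 for WNT4 and -0.07 ± 0.15 for Cre. The probe set that reads Notch3 carries a suffix (_s_at) that marks probes shared between transcripts, and it ran from 5.76 to 6.21. Its differences from GFP were 0.20 ± 0.13 and 0.14 ± 0.13, and those of the other Notch3 probe set -0.09 and 0.08.

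**Figure D3:**
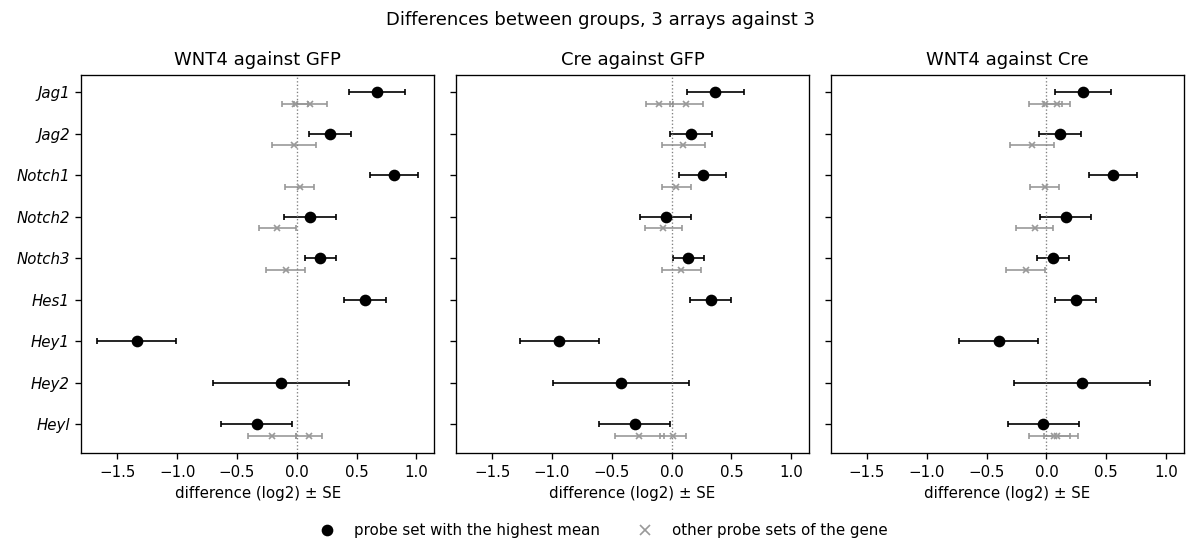
Log2 difference ± SE between groups of 3 arrays for every probe set of the 9 members, in the 3 comparisons; black dots are the probe set with the highest mean of each gene and grey crosses its other probe sets. The 8 grey crosses of each panel lie between -0.27 and 0.12, closer to 0 than the black dots of Notch1 and Jag1 with WNT4.

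The Cre arrays were set against the GFP arrays, a comparison in which Cre itself and any loss of Ctnnb1 come together. Hey1 was the only member whose Cre and GFP arrays did not overlap and the only one with an unadjusted p under 0.05. Groups did not overlap for 6.02% of all probe sets and 6.92% of the brighter genes. An unadjusted p under 0.05 was reached by 2.23% of all probe sets (1.01% higher, 1.22% lower) and 2.97% of the brighter genes. Limma called 0 members and 0 of all probe sets (0.00%), with 1006 probe sets at an unadjusted p under 0.05. Without GFP 3 no member had an unadjusted p under 0.05. The median difference of the 9 members was 0.14, with 5 above 0 and 4 below, and 0.045 without Cre 3. The median was -0.0162 for all probe sets and 0.02 for the brighter genes, of which 44.7% and 55.3% were above 0.

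WNT4 was set against Cre to compare the 2 viruses without the GFP arrays. Notch1 was again the member that separated the groups and had the 1 unadjusted p under 0.05, where 8.23% of all probe sets and 11.3% of the brighter genes did not overlap. That p was reached by 6.23% of all probe sets (5.07% higher, 1.17% lower) and 12.9% of the brighter genes. No member had an unadjusted p under 0.05 without WNT4 1 (Notch1 at 0.37), without Cre 1 (0.52) or with probe sets averaged per gene (0.27). Limma called 0 members and 0 of all probe sets (0.00%), with 2808 at an unadjusted p under 0.05. Hey1 differed by -0.40 ± 0.33 (SE, unadjusted p = 0.254). In this comparison the deviations of same-numbered arrays all correlated above 0.1, and with the replicate number as a block the unadjusted p of Hey1 was 0.0369 and its limma adjusted p 0.664, so no call changed. The median of the 9 members was 0.16, against 0.02 for all probe sets and 0.13 for the brighter genes.

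Some members followed each other across arrays and others did not. Over the 9 arrays, which include the group differences and array 1 of WNT4 as a high point, Jag1 and Notch1 correlated at 0.87, Notch1 and Hes1 at 0.86 and Jag1 and Hes1 at 0.84 (Pearson's r, a description). Hey1 ran against them, at -0.68 with Notch1, -0.62 with Hes1 and -0.57 with Jag1. Hey2 was not tied to the others (r from -0.233 to 0.225), and Notch2 correlated with Jag2 at -0.53. Among 10549 brighter genes, the gene most like Notch1 was Pnp (r = 0.99), the gene most like Jag1 was Nipbl (0.99) and the gene most like Hes1 was Jakmip3 (0.98). The most like Hey1 was Adgrv1 (0.96), Hey2 Plagl1 (0.98), Jag2 Dtx4 (0.96) and Notch2 Abcc5 (0.91). An r of at least 0.95 was reached by 29 genes with Notch1, 17 with Jag1, 9 with Hes1, 10 with Hey2, 2 with Hey1, 1 with Jag2 and 0 with Notch2. For Notch1 and Jag1, therefore, the gene named is the first of many.

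Other genes of the pathway were read from a fixed list of 56, of which 51 were measured here. Limma called 0 of them in any comparison. For WNT4 against GFP, 12 were higher and 2 lower at an unadjusted p under 0.05, beside the shares given above, and the median difference was 0.12. For Cre against GFP 1 was higher and 0 lower, with a median of -0.0018, and for WNT4 against Cre 3 were higher and 1 lower, with a median of 0.09. The remaining ligands were mostly dim: Dll1, Dll3 and Dll4, the Delta-like ligands, and Dlk1, an atypical ligand, had means of 5.1 to 5.7 and differed by -0.33 to 0.04 for WNT4 against GFP. Dlk2, its relative, differed by -0.02, and by -0.25 in its other probe set. Dner, a membrane protein described as a further Notch ligand, read 8.72, 7.54 and 8.92 with GFP and 9.58, 8.92 and 9.45 with WNT4, a difference of 0.92 ± 0.38 (SE, unadjusted p = 0.0385, limma adjusted p = 0.355), with 1.05 in its other probe set. GFP 3 and WNT4 2 met at 8.92, so the groups of Dner overlapped. Notch4, the receptor of endothelium, had a mean of 4.7 and differed by 0.15.

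The enzymes that cut the receptor gave the largest lower value of the list. Aph1a, a subunit of gamma-secretase, read 12.30, 12.37 and 12.15 on GFP 1, 2 and 3 and 10.79, 12.06 and 11.08 on WNT4 1, 2 and 3. All WNT4 arrays were below all GFP arrays, WNT4 2 by little. The difference was -0.96 ± 0.28 (SE, unadjusted p = 0.00705, limma adjusted p = 0.237), but its other probe sets differed by 0.18 and -0.05. Ncstn, another subunit, differed by 0.32 ± 0.13 (-0.008 in its other, dim probe set) and Furin, which cuts the receptor on its way to the surface, by 0.29 ± 0.14. Rbpj, the DNA-binding partner, differed by 0.15 ± 0.29, with Cre 3 (11.56) and WNT4 3 (11.75) its highest arrays. Its other probe sets differed by 0.22 and 0.19.

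The lowest unadjusted p of the list belonged to a corepressor. Tle3, a Groucho-type corepressor that Hes proteins recruit, read 8.41, 8.30 and 8.40 with GFP, 8.62, 8.62 and 8.76 with Cre and 8.80, 8.78 and 8.88 with WNT4. The 3 groups did not overlap, although the highest Cre array (8.76) lay just below the lowest WNT4 array (8.78). Tle3 differed from GFP by 0.45 ± 0.08 for WNT4 (SE, unadjusted p = 0.000445, limma adjusted p = 0.171) and by 0.30 ± 0.08 for Cre (unadjusted p = 0.00653, limma adjusted p = 1). Its other probe sets are dim and differed by 0.53, 0.11 and -0.16 for WNT4. Ctbp2, a corepressor, differed by 0.52 ± 0.17 for WNT4 against GFP, and by 0.32 ± 0.24 in its other probe set. Numb, which restrains Notch receptors, differed by 0.39 ± 0.13 in its brightest probe set and by -0.45 ± 0.10 in the other. That other probe set is dim (mean of 5.35), and the direction of Numb depends on the probe set. Of the ubiquitin ligases, Dtx3l differed by 0.91 ± 0.32 (0.59 ± 0.30 in its other probe set) and Mib2 by 0.26 ± 0.11. Nrarp, a target that feeds back on the pathway, is dim and differed by -0.26 ± 0.11, with its other probe set at 0.27.

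**Figure D4:**
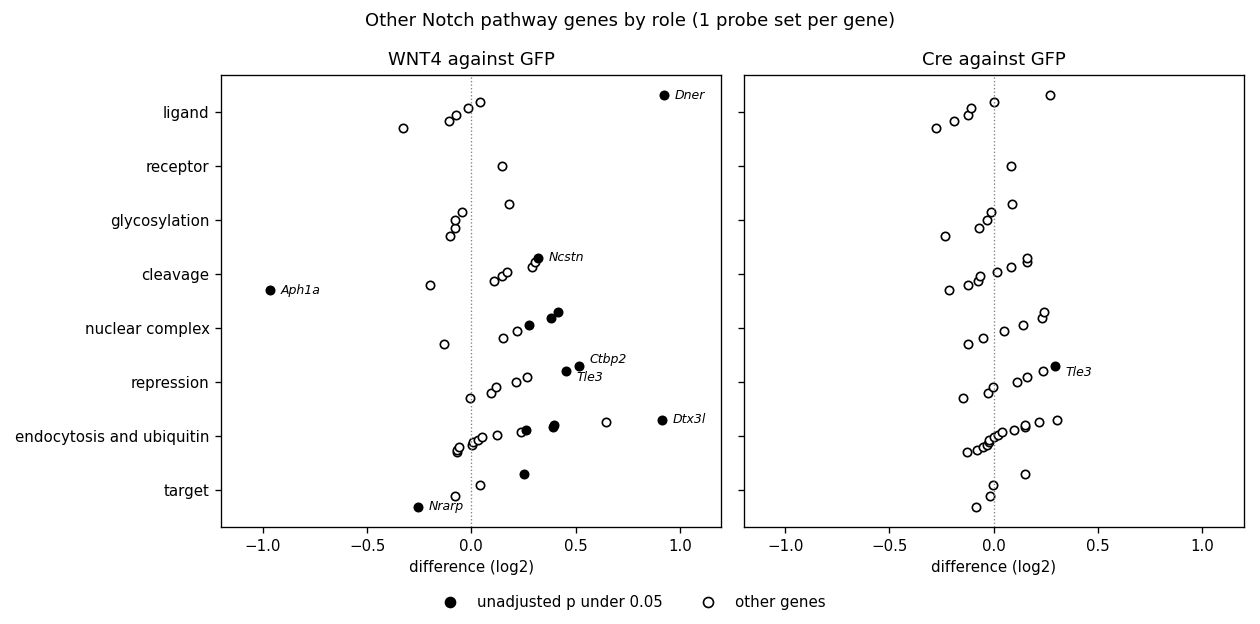
Log2 difference from GFP of the 51 other Notch pathway genes, by role, for WNT4 (left) and Cre (right), 1 probe set per gene; filled dots have an unadjusted p under 0.05 and none passed after adjustment. With WNT4 14 dots are filled, Aph1a lowest at -0.96 and Dner highest at 0.92, and with Cre Tle3 alone is filled.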

How the data were processed

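RNA from 9 samples was hybridised to Affymetrix mouse arrays. The deposited table holds log2 values for all arrays. Per the submitters' processing notes the authors used RMA, with no version stated. RMA corrects background and normalizes between arrays, so differences in total signal are already reduced. The number of arrays limits the precision. Of 45101 probe sets, 64 controls were left out. The platform annotation gave 1 symbol to 34945 probe sets, several to 932 (not named) and none used here to 9160. Groups and replicate numbers came from the labels.

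Limma 3.58.1 in R 4.3.3 was fitted to all 9 arrays with no covariate (6 residual and 2.8 prior degrees of freedom), two-sided, and each comparison's p-values were adjusted by Benjamini-Hochberg over its 45037 probe sets and called under 0.05. The procedure was tested on simulated data with independent noise per probe set, without the shifts of whole lists seen on single arrays. An exact permutation test of 3 arrays against 3 cannot go below p = 0.1. No array pair shared more than 4.53% equal values. All members are named. Of the other pathway genes, those called, the 8 with the lowest unadjusted p, the ligands and receptors, Rbpj and Nrarp are named. Members and lists were chosen with earlier results of these data known. Same-numbered arrays all correlated positively (0.21, 0.24 and 0.77) only between WNT4 and Cre. Array 3 alone correlated at 0.347 between WNT4 and GFP and at 0.305 between Cre and GFP. The pairing of WNT4 with Cre rests on the values, since the labels state none, and their pairs with different numbers reached 0.28 and 0.32. Alternatives were the replicate block, each pair of groups alone, 3 scalings, no dim probe sets, an intensity trend, array weights, averaging probe sets per gene and leaving out each array. Leaving out Cre 3 and WNT4 3 was added after seeing the data.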

Additional observations from a re-analysis of the deposited data

How the results depend on the processing

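The count of called members was 0 in each comparison under each of the 19 alternatives, and with the replicate block the limma adjusted p of Hey1 in WNT4 against GFP was 0.0779. Same-numbered arrays of that comparison correlated at -0.082, 0.012 and 0.347, against up to 0.406 for different numbers, and the labels state no pairing. With the block the limma unadjusted p of Hey1 was 5.22e-05 there and 0.000502 in Cre against GFP. The block changed no call. For WNT4 against GFP the median change of the members, 0.197, was 0.045 after centring on the 75th percentile (a setting that puts the all-probe-set median at -0.154). It was 0.274 when dim probe sets were dropped and 0.052 when probe sets were averaged per gene, and it ran from 0.152 to 0.307 when single arrays were left out. Signs of small differences turned. In WNT4 against GFP, Notch2 was -0.101 after quantile normalization, -0.041 after centring on the 75th percentile and -0.027 with the mean of its probe sets, and ran from -0.034 to 0.308 without single arrays. There Hey2 ran from -0.766 to 0.246 without single arrays and was 0.152 without Cre 3 and WNT4 3. In Cre against GFP, Notch2 was 0.016 with array weights and 0.104 without Cre 3 and WNT4 3, and ran from -0.245 to 0.147 without single arrays. In WNT4 against Cre, Notch2 was -0.008 after quantile normalization, and Notch3 -0.046 after centring on the 75th percentile and -0.059 with the mean of its probe sets, where Jag2 was -0.004 and Heyl 0.041. Heyl was 0.087 without Cre 3 and WNT4 3. Without single arrays, that comparison ran from -0.045 to 0.229 for Jag2, from -0.012 to 0.172 for Notch3, from -0.18 to 0.185 for Heyl and from -0.341 to 0.649 for Hey2. The cause of these turns was not tested. Jag1, Notch1, Hes1 and Hey1 kept their sign in each comparison under each of the 19 alternatives. Dim probe sets, close to the floor of the arrays, can hide differences: 8 of the 17 member probe sets had a mean under 6.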
